A study of Mus musculus with 12 samples.

Results

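Amacrine and horizontal cells are the inhibitory interneurons of the retina, and 9 transcription factor genes known for their specification or identity were followed here. These were Foxn4, Ptf1a, Prdm13, Tfap2a, Tfap2b, Onecut1, Onecut2, Prox1 and Lhx1. They were taken by symbol, through their Ensembl identifiers, and made up 9 of the 52550 genes in the count table. All 9 passed the filter on low counts in every fit described below. The measurement was RNA immunoprecipitation followed by sequencing (RIP-seq), in which an antibody recovers a protein together with the RNA it is bound to, and the recovered RNA (IP) is sequenced beside the starting RNA (input).

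The groups, each of 2 libraries, were retina Ythdf1 IP, retina Ythdf2 IP, retina input, cortex Ythdf1 IP, cortex Ythdf2 IP and cortex input. Retinas were taken on the day of birth (postnatal day 0, P0) and cortices at embryonic day 12.5 (E12.5), and all mice were wild type C57BL/6, so tissue and age differ together. The antibodies were directed at endogenous Ythdf1 and Ythdf2, and input was the background used, since no IP with an unrelated antibody was among the samples. The labels do not say how many animals were pooled or whether replicates came from separate litters, and p-values therefore measure the spread between these libraries, which may be technical.

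Retinal progenitors give rise to all neurons of the retina, and amacrine and horizontal cells are among the early ones to be made. Foxn4, a forkhead factor of progenitors, is required for horizontal cells and many amacrine cells and acts upstream of Ptf1a, a bHLH factor, which in turn is upstream of Prdm13, a PR-domain zinc finger protein. Foxn4, Ptf1a and Prdm13 are called the early factors below, as a label only. Tfap2a and Tfap2b are AP-2 factors, and Onecut1, Onecut2, Prox1 and Lhx1 are best known in horizontal cells. Ythdf1 and Ythdf2 are cytoplasmic readers of N6-methyladenosine (m6A), a methyl mark on adenosines of mRNA. Ythdf1 has been linked to translation and Ythdf2 to decay of the mRNAs they bind. The m6A mark is commonly placed within a GGACT sequence and is often found near stop codons.

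For that reason the GGACT nearest to the stop codon is shown for 8 of the 9 transcripts, with 10 bases on either side, in mRNA sense and with T for U. Capitals mark the GGACT. The lines were read from the GENCODE M21 transcripts on GRCm38, 1 protein-coding transcript for each gene. They show where the letters lie, and no methylation was measured.
Foxn4: atcttctgcaGGACTtgagacagag
Ptf1a: tctctttcctGGACTgatgaaaaac
Prdm13: cgccttccagGGACTgagcagggac
Tfap2a: acctagccagGGACTttgggtacgt
Tfap2b: atccccgaagGGACTaccactctgt
Onecut1: gaagaaccacGGACTagtacctcgg
Prox1: caccgcagaaGGACTctctttgtca
Lhx1: atcccccaggGGACTcgcctagtcc

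The Foxn4 site (GRCm38 chr5:114255298-114255322, minus strand) lay in the 3′ UTR, with its GGACT 179 bases after the end of the stop codon. The Prdm13 site (chr4:21678197-21678221, minus strand) and the Onecut1 site (chr9:74889604-74889628, plus strand) were also in 3′ UTRs, 13 and 16 bases after the stop codon. The Ptf1a site (chr2:19447020-19447044, plus strand) and the Lhx1 site (chr11:84519700-84519724, minus strand) were in coding sequence, 136 and 165 bases before the end of the stop codon. The coding sites of Tfap2a (chr13:40719297-40719321, minus strand), Prox1 (chr1:190160588-190160612, minus strand) and Tfap2b (chr1:19214276-19214300, plus strand) were farther away, at 408, 569 and 963 bases. Onecut2 had a GGACT 6 bases from the end of its stop codon.

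With a window of 200 bases on either side of the end of the stop codon, 6 of the 9 transcripts (66.7%) held GGACT on the mRNA strand, against 39.8% of 12404 protein-coding transcripts of genes tested in the retina. Tfap2a, Tfap2b and Prox1 were the 3 without one. Over whole transcripts the density was alike, with a median of 1.04 GGACT per kilobase in the 9 transcripts and 1.05 in all. The transcripts ran from 1508 bases for Ptf1a to 16234 bases for Onecut2, with a median of 3846 bases, against 3157 bases for all. These are descriptions of 9 sequences and were not tested.

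Library totals ran from 19530226 to 40515980 counts, of which 1676910 to 13621485 lay in protein-coding genes (2083594 to 4175459 in the retina libraries). At these depths 3 counts, used below as the floor for a gene listed at 0, equal 0.0283 to 0.356 normalised CPM, the counts scaled to library size. Intervals and floors cover counting error alone. The library labelled cortex input replicate 1 stood apart. Its summed level of 8 mature brain markers was 3150 normalised CPM, against 11.4 in cortex input replicate 2 and 15.1 to 39.4 in the other 10 libraries, and the Spearman correlation of the 2 cortex inputs over protein-coding genes was 0.8, against 0.951 to 0.974 within the other groups. Results that rest on it are given without it as well. Because it widens the spread in a fit shared by all libraries, the retina comparisons were fitted to the 6 retina libraries alone.

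Markers of both cell types were present in the retina. The summed level of 10 amacrine markers was 157 to 175 normalised CPM in retina IPs and 225 to 253 in retina inputs, and 33.8 to 86.4 in the 6 cortex libraries. For 8 horizontal cell markers the sum was 31.2 to 46 normalised CPM in retina IPs and 30.9 to 64.2 in retina inputs. It was 18.6 to 53.2 in cortex libraries, so the ranges of the tissues overlapped. The 33.8 and the 53.2 were both of cortex input replicate 1. Without it the cortex sums were 42.3 to 86.4 for amacrine and 18.6 to 32.1 for horizontal cell markers. The horizontal cell ranges then overlapped only narrowly. Single genes that are not particular to these cells made up much of the sums. Pax6, counted below among the upstream factors as well, had 114 and 115 normalised CPM in retina inputs, where the amacrine sums were 225 and 253. Prox1, detected in both tissues, had 12.6 and 27.4, where the horizontal cell sums were 30.9 and 64.2. Calb1, the calbindin gene of mature horizontal cells, had 0 counts in all 6 retina libraries. These lists include Tfap2a and Tfap2b, and Onecut1, Onecut2, Prox1 and Lhx1, and so are no independent check. In whole tissue, fewer cells of a type and less of an RNA per cell cannot be told apart.

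**Figure D1:**
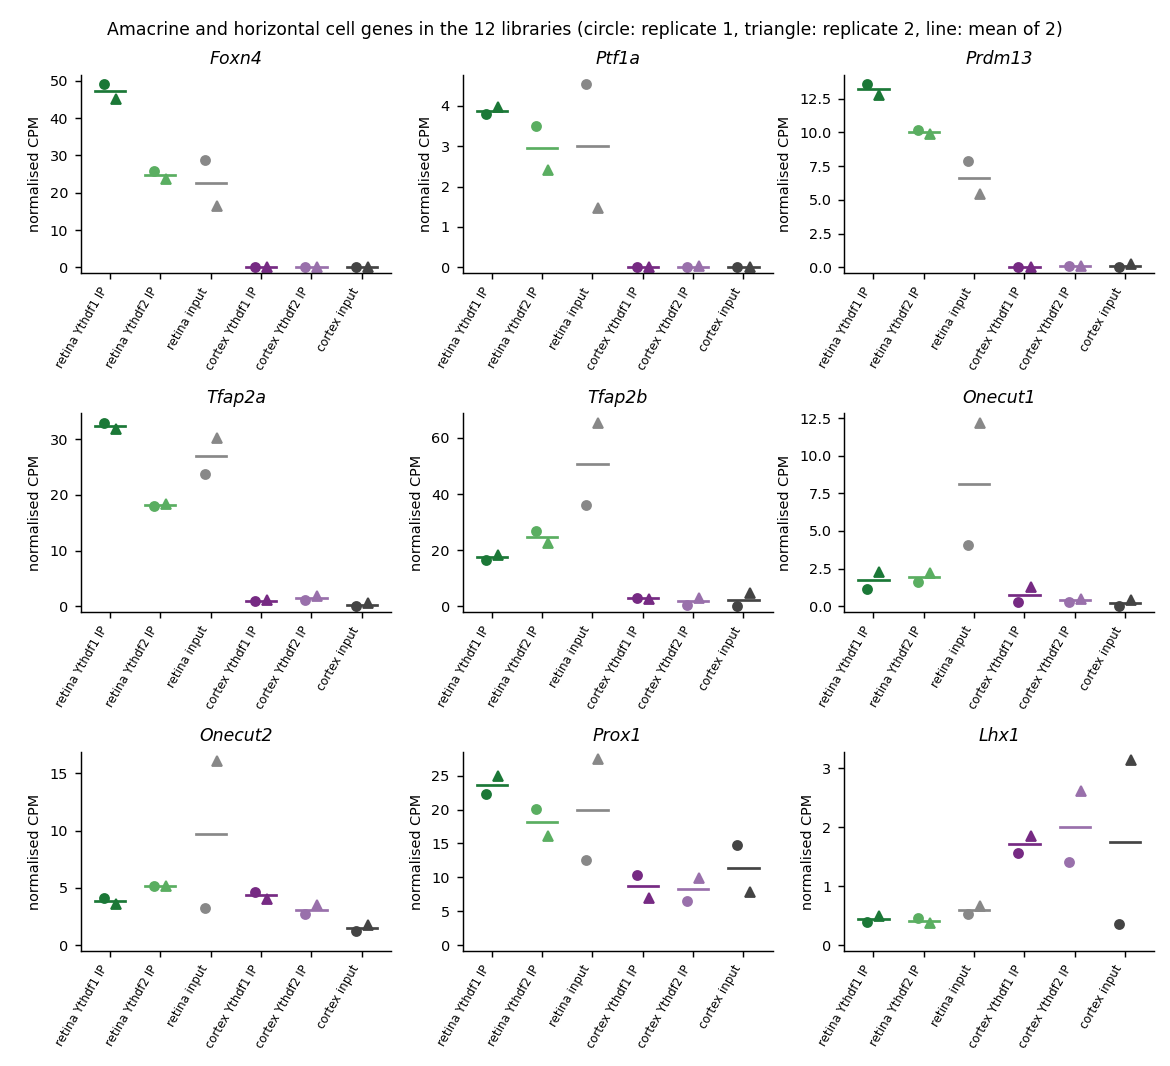
Level of each of the 9 genes in the 12 libraries (y axis, normalised CPM with scaling factors over 12 libraries; circles are replicate 1, triangles replicate 2, lines the mean of 2). Foxn4, Ptf1a and Prdm13 are at or near 0 in every cortex library, whereas Prox1 and Onecut2 are present in both tissues and Lhx1 is higher in cortex, apart from cortex input replicate 1.

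Levels were compared between genes as FPKM, the authors' counts scaled to gene length and library size. In retina inputs Tfap2b averaged 5.85 ± 2.72 FPKM, Foxn4 4.8 ± 1.58 and Tfap2a 3.99 ± 0.914 (SD, n = 2 each, as for all means below), and these neighbours in the order did not differ beyond their spread. Prox1 at 1.74 ± 0.996, Onecut1 at 1.45 ± 1.09, Ptf1a at 1.41 ± 0.961 and Prdm13 at 1.1 ± 0.221 FPKM formed a second set whose values overlapped. Onecut2 had 0.534 ± 0.521 FPKM. Lhx1, at 0.1 ± 0.0228 FPKM, was the lowest of the 9 in each of the 6 retina libraries. Foxn4 was first in both retina Ythdf1 IPs, at 10.3 ± 0.56 FPKM, in both retina Ythdf2 IPs, at 6.01 ± 1.56 FPKM, and in retina input replicate 1, at 5.91 FPKM. Tfap2b was first in retina input replicate 2, at 7.77 FPKM, where Foxn4 had 3.68 FPKM. In all 6 cortex libraries Prox1 was first.

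The Ythdf1 IP of the retina held more Foxn4 and Prdm13 RNA than the input, and less Tfap2b and Onecut1 RNA. Of the 9 genes, 2 were called higher and 2 lower by edgeR's quasi-likelihood test at an adjusted p under 0.05 (Benjamini-Hochberg over 14380 genes). The test called 17.3% of all genes higher and 20.3% lower, so that shares of this size are close to those of all genes. Without Ythdf1 IP replicate 1 none of the 9 was called, beside 16.4% of all genes called in either direction. Without Ythdf1 IP replicate 2 or either Ythdf2 IP 2 were, beside 17.8% to 31.1% of all genes. Without input replicate 1 the number was 6, beside 50.4%, and without input replicate 2 it was 5, beside 46.8%. The median log2 fold change of the 9 genes was 0.14, beside -0.07 for all genes tested. Levels in the retina comparisons are normalised CPM with scaling factors from the 6 retina libraries, in which replicate 1 comes before replicate 2.

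Among the early factors, Foxn4 had 37.1 and 34.4 normalised CPM in Ythdf1 IPs, against 24.4 and 13.1 in inputs. Both IP libraries lay above both inputs, and the inputs differed from each other more than the IPs did. The log2 fold change was 0.93 (SE 0.32, adjusted p = 0.0464, edgeR). Prdm13 had 10.3 and 9.76 normalised CPM in Ythdf1 IPs, against 6.67 and 4.32 in inputs, again without overlap. It rose by a log2 change of 0.87 (SE 0.3, adjusted p = 0.046). Both calls were near the threshold. They were lost without any 1 of the 4 retina IP libraries (adjusted p 0.0971 to 0.223 for Foxn4 and 0.104 to 0.232 for Prdm13), with DESeq2 size factors (adjusted p = 0.0505 for Foxn4 and 0.051 for Prdm13), and in a fit to all 12 libraries (adjusted p = 0.337 for Foxn4 and 0.263 for Prdm13). In a fit to 11 libraries, without cortex input replicate 1, the call of Foxn4 was lost (adjusted p = 0.084) and Prdm13 had an adjusted p of 0.0343. Ptf1a, the factor between them, had 2.86 and 3.01 normalised CPM in Ythdf1 IPs, against 3.86 and 1.17 in inputs. The IPs lay between the inputs, and the log2 fold change of 0.23 (SE 0.52, adjusted p = 0.757) took either sign, -0.42 and 1.29, when input replicate 2 or 1 was left out. Ptf1a was called higher in the second of these fits, which rests on a single input library.

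The AP-2 factors differed from each other. Tfap2b had 12.5 and 14 normalised CPM in Ythdf1 IPs, against 30.5 and 51.9 in inputs, with no overlap. It fell by 1.64 on the log2 scale (SE 0.31, adjusted p = 0.00385, edgeR). The call was lost without Ythdf1 IP replicate 1 (adjusted p = 0.0548), in the fit to all 12 libraries (adjusted p = 0.385) and in a fit to 11 libraries without cortex input replicate 1 (adjusted p = 0.0659). Tfap2a had 24.9 and 24.2 normalised CPM in Ythdf1 IPs, against 20.1 and 24 in inputs, a log2 change of 0.16 (SE 0.25, adjusted p = 0.651) that was under its own error.

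Of the horizontal cell factors, Onecut1 had 0.874 and 1.72 normalised CPM in Ythdf1 IPs, against 3.45 and 9.64 in inputs. All IP values were below all input values, although the inputs differed strongly. The fall of 2.34 on the log2 scale (SE 0.55, adjusted p = 0.00934, edgeR) rested on 36 and 60 counts in the IPs and was lost without Ythdf1 IP replicate 1 (adjusted p = 0.0818) and in the fit to all 12 libraries (adjusted p = 0.134). Onecut2 had 3.08 and 2.76 normalised CPM in Ythdf1 IPs, against 2.74 and 12.8 in inputs, so that input replicate 2 alone stood above the IPs. Its log2 fold change of -1.41 (SE 0.58) had an adjusted p of 0.0834. It was 0.07 without input replicate 2 and -2.16 (adjusted p = 3.13e-05) without input replicate 1, and DESeq2 on all 6 libraries gave an adjusted p of 0.0353. Prox1 had 16.8 and 18.9 normalised CPM in Ythdf1 IPs, between the 10.7 and 21.7 in inputs, with a log2 change of 0.14 (SE 0.35, adjusted p = 0.778). It was -0.31 (adjusted p = 0.16) without input replicate 1 and 0.71 (adjusted p = 0.0117) without input replicate 2. Lhx1, a LIM-homeodomain factor, had 12 and 13 counts in Ythdf1 IPs and 15 and 19 in inputs. At this depth no difference was detectable (log2 fold change -0.55, SE 0.77, adjusted p = 0.605).

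**Figure D2:**
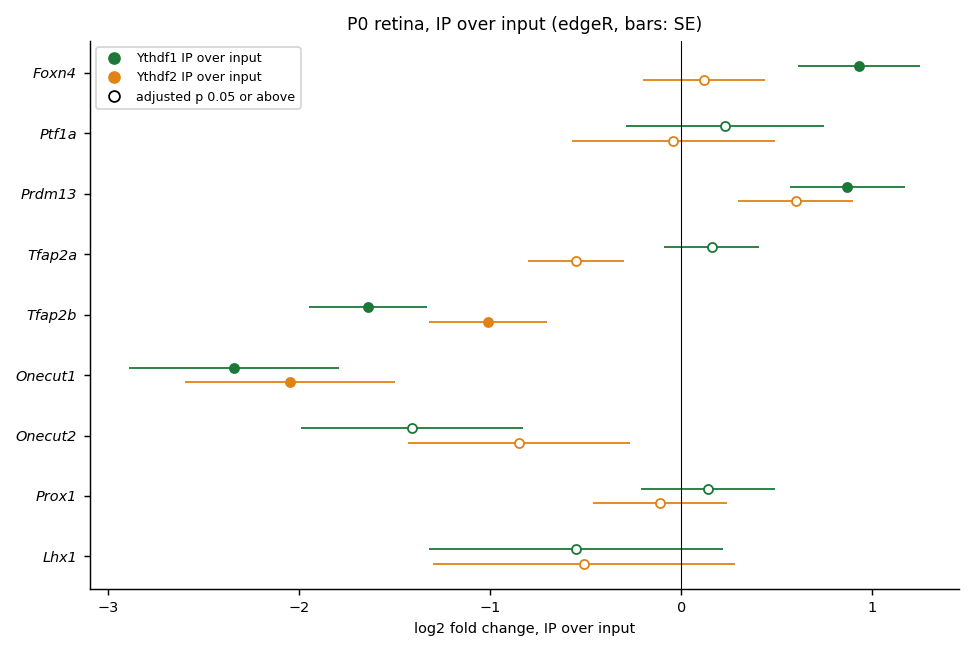
Log2 fold change of IP over input in the P0 retina for each of the 9 genes (x axis; points are edgeR estimates, bars are 1 SE, filled points have an adjusted p under 0.05). For the Ythdf1 IP, Foxn4 (0.93) and Prdm13 (0.87) are to the right of 0 and Tfap2b (-1.64) and Onecut1 (-2.34) to the left; for the Ythdf2 IP the filled points are Tfap2b (-1.01) and Onecut1 (-2.05).

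In the Ythdf2 IP of the retina, Tfap2b and Onecut1 were again below the input and none of the 9 genes was called higher. With 0 higher and 2 lower, the counts stood beside 9.55% of all genes called higher and 10.7% called lower by the same test. Both IPs were set against the same 2 input libraries, so the 2 comparisons are not independent of each other. Without Ythdf2 IP replicate 1 or 2 none of the 9 was called, beside 4.59% or 5.73% of all genes called in either direction. Without Ythdf1 IP replicate 1 or 2 the number was 1, beside 12.9% or 13.3%. Without input replicate 1 it was 7, beside 35.1%. The median log2 fold change was -0.51 for the 9 genes and 0.06 for all genes tested.

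Tfap2b had 22 and 18.8 normalised CPM in Ythdf2 IPs, against 30.5 and 51.9 in inputs, and fell by 1.01 on the log2 scale (SE 0.31, adjusted p = 0.0469, edgeR). That call was just inside the threshold. It was lost under 10 of 15 alternatives, among them the replicate block (adjusted p = 0.0536), scaling to protein-coding totals (log2 fold change -0.65, adjusted p = 0.149) and leaving out any 1 of the 4 IP libraries (adjusted p 0.101 to 0.252). Onecut1 had 1.33 and 1.84 normalised CPM in Ythdf2 IPs, from 32 and 42 counts, against 3.45 and 9.64 in inputs. It fell by 2.05 on the log2 scale (SE 0.55, adjusted p = 0.0292). That call was lost under 7 of 15 alternatives. These were leaving out input replicate 2 (-1.15, adjusted p = 0.0729) or either Ythdf2 IP (adjusted p 0.125 or 0.189), protein-coding totals (-1.68, adjusted p = 0.0517), limma on FPKM with either pseudocount (adjusted p 0.0616 and 0.0654) and the fit to all 12 libraries (adjusted p = 0.272).

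Foxn4 had 21.2 and 19.6 normalised CPM in Ythdf2 IPs, inside the range of the inputs (24.4 and 13.1), and its log2 fold change was 0.12 (SE 0.32, adjusted p = 0.822). Prdm13 had 8.4 and 8.22 normalised CPM in Ythdf2 IPs, above the inputs at 6.67 and 4.32, with a log2 change of 0.6 (SE 0.3, adjusted p = 0.191). With protein-coding totals as the scale it was 0.98 (adjusted p = 0.0333). Tfap2a had 14.8 and 15.4 normalised CPM in Ythdf2 IPs, below the inputs at 20.1 and 24, with a log2 change of -0.55 (SE 0.25, adjusted p = 0.155). Without either input library its adjusted p was under the threshold, at 0.00377 without replicate 1 and 0.0352 without replicate 2. Ptf1a, Onecut2, Prox1 and Lhx1 had log2 fold changes of -0.04, -0.85, -0.11 and -0.51, all with adjusted p of 0.326 or above. The sign for Foxn4, Ptf1a, Onecut2 and Prox1 depended on which input was used. Without input replicate 2 they were -0.29, -0.69, 0.61 and 0.45, and without input replicate 1 they were 0.6, 1.02, -1.61 and -0.57. In the fit without input replicate 1, which rests on a single input library, Foxn4 was called higher, and Onecut2 and Prox1 were called lower.

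The inputs themselves sorted the 9 genes in a pattern. Replicate 1 held more Foxn4 (24.4 against 13.1 normalised CPM), Ptf1a (3.86 against 1.17) and Prdm13 (6.67 against 4.32) than replicate 2. Replicate 2 held more Tfap2b (51.9 against 30.5), Onecut1 (9.64 against 3.45), Onecut2 (12.8 against 2.74) and Prox1 (21.7 against 10.7). Tfap2a (24 against 20.1) and Lhx1 (0.529 against 0.442) differed in the same direction by less. Thus Foxn4, Ptf1a and Prdm13 were higher in one input library and the other 6 genes in the other, Tfap2a by little and Lhx1 on 15 and 19 counts. Over 8 retinal progenitor markers the summed level, scaled over 12 libraries, was 374 normalised CPM in input replicate 1 and 260 in replicate 2, while it was 330 and 333 in Ythdf1 IPs and 233 and 218 in Ythdf2 IPs. Over 8 photoreceptor markers it was 207 and 172 in the inputs, 180 to 183 in Ythdf1 IPs and 176 to 198 in Ythdf2 IPs. Over 8 ganglion cell markers it was 57.7 and 45.1 in the inputs and 25.5 to 29.1 in the 4 IPs. The part of the input libraries in the IP results was not tested beyond leaving each out.

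Transcript length moved with the IPs as well. Over protein-coding transcripts the median log2 fold change of the Ythdf1 IP was -0.86 for those under 2000 bases (3005 genes), 0.13 for 2000 to 4000 bases (5054 genes) and 0.57 for those over 4000 bases (4345 genes). For the Ythdf2 IP these medians were -0.75, 0.16 and 0.59. Foxn4 (3016 bases) and Prdm13 (3173 bases) belonged to the middle class, and their Ythdf1 values of 0.93 and 0.87 were above its median. Tfap2b (5863 bases), at -1.64, and Onecut2 (16234 bases), at -1.41, were far below the median of the longest class. Onecut1 (3957 bases), at -2.34, was below that of the middle class. Ptf1a (1508 bases), at 0.23, was well above the median of the shortest class. Tfap2a (2863 bases), at 0.16, was close to the median of the middle class. Lhx1 (3846 bases), at -0.55, was below it, and Prox1 (7913 bases), at 0.14, was below that of the longest class. The part of length in the results of the single genes was not tested.

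The 2 antibodies were compared directly in the retina. None of the 9 genes was called by edgeR, where 2.57% of all genes were called higher and 6.56% lower in Ythdf1 than in Ythdf2 IPs. Before adjustment 2 of the 9, Foxn4 and Tfap2a, had p under 0.05. Foxn4, at 37.1 and 34.4 normalised CPM in Ythdf1 IPs against 21.2 and 19.6 in Ythdf2 IPs, had a log2 change of 0.81 (SE 0.32, adjusted p = 0.144). Tfap2a, at 24.9 and 24.2 against 14.8 and 15.4, had one of 0.7 (SE 0.25, adjusted p = 0.112). Tfap2b went the other way, at 12.5 and 14 normalised CPM in Ythdf1 IPs and 22 and 18.8 in Ythdf2 IPs (log2 fold change -0.63, SE 0.31, adjusted p = 0.225). The pairs of values did not overlap in any of the 3 genes. Without either input library, which is not part of the contrast but sets the shared spread, all 3 were called (highest adjusted p 0.0007 for Foxn4, 0.00153 for Tfap2a and 0.00628 for Tfap2b), where 32.9% or 32.8% of all genes were called in either direction. DESeq2 called Tfap2a (adjusted p = 0.0472), and without the filter on low counts edgeR called Foxn4 (0.0348) and Tfap2a (0.0456). A log2 fold change of 0.27 (SE 0.3) for Prdm13 and of 0.27 (SE 0.52) for Ptf1a left no call for the other early factors.

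Ratios of counts of 2 genes within a library need no scaling between libraries. Those given here were chosen after the values were seen, and carry no test. For Foxn4 over Tfap2b, the ratio was 2.98 and 2.46 in Ythdf1 IPs, 0.96 and 1.05 in Ythdf2 IPs, and 0.799 and 0.252 in inputs. The 3 groups did not overlap. Tfap2a over Tfap2b gave 2 and 1.74 in Ythdf1 IPs, 0.672 and 0.818 in Ythdf2 IPs, and 0.659 and 0.462 in inputs, where the Ythdf1 IPs stood well apart and the others were close. Foxn4 over Onecut1 gave 42.5 and 19.9 in Ythdf1 IPs, 15.9 and 10.7 in Ythdf2 IPs, and 7.07 and 1.36 in inputs. Where a ratio differed between groups, it did not show which of the 2 RNAs changed. The inputs differed from each other as well. For Foxn4 over Tfap2b they did so by more than the Ythdf2 IPs differed from input replicate 1.

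**Figure D3:**
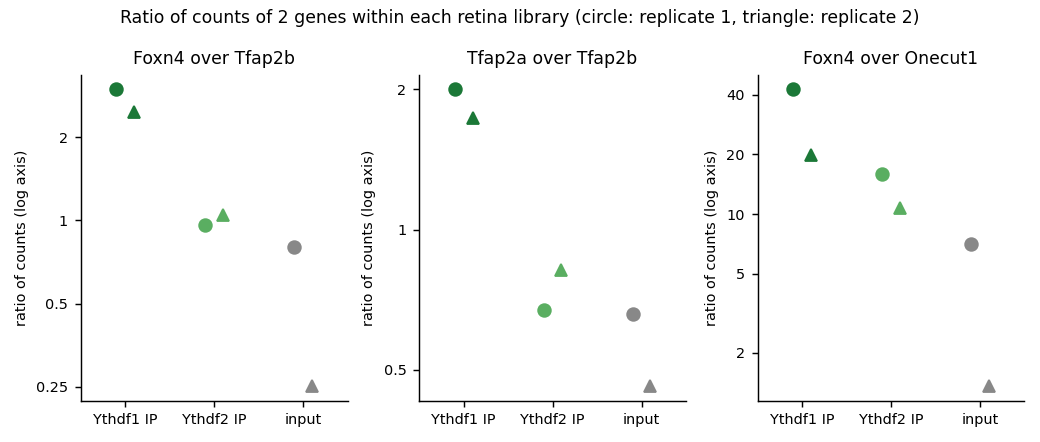
Ratio of the counts of 2 genes within each retina library (y axis, log scale, without unit; circles are replicate 1, triangles replicate 2), for the Ythdf1 IPs, the Ythdf2 IPs and the inputs. For Foxn4 over Tfap2b the Ythdf1 IPs are at 2.98 and 2.46, the Ythdf2 IPs at 0.96 and 1.05 and the inputs at 0.799 and 0.252.

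As checks of the targets' own RNA, the Ythdf1 transcript had a log2 change of 0.84 (SE 0.27, adjusted p = 0.036, edgeR) in retina Ythdf1 IP over input and 0.67 (SE 0.27, adjusted p = 0.111) in the Ythdf2 IP. The Ythdf2 transcript had 0.99 (SE 0.4, adjusted p = 0.074) in the Ythdf1 IP and 0.38 (SE 0.4, adjusted p = 0.536) in the Ythdf2 IP. These describe the mRNAs and say nothing about recovery of the proteins.

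Between tissues, the early factors Foxn4, Ptf1a and Prdm13 were at or near 0 in cortex. Foxn4 had 1529 and 1197 counts in retina Ythdf1 IPs against 0 and 0 in cortex Ythdf1 IPs, 509 and 449 in retina Ythdf2 IPs against 0 and 11 in cortex Ythdf2 IPs, and 827 and 470 in retina inputs against 0 and 0 in cortex inputs. Ptf1a had 118 and 105 counts in retina Ythdf1 IPs against 0 and 0, 69 and 46 in retina Ythdf2 IPs against 0 and 3, and 131 and 42 in retina inputs against 0 and 0. Prdm13 had 424 and 340 counts in retina Ythdf1 IPs against 0 and 0, 202 and 188 in retina Ythdf2 IPs against 7 and 11, and 226 and 155 in retina inputs against 0 and 21. No cortex library reached the lowest retina library for any of these genes.

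In the Ythdf1 IPs the floor of 3 counts per library made Foxn4 at least 400-fold, Prdm13 at least 112-fold and Ptf1a at least 32.9-fold higher in retina than in cortex. For the Ythdf2 IPs the log2 fold change was 8.49 (SE 0.52, adjusted p = 5.26e-07, edgeR) for Foxn4 and 6.43 (SE 0.36, adjusted p = 2.98e-07) for Prdm13. For Ptf1a, with 3 counts in cortex, the ratio of pooled normalised counts was 157, with an exact 95% interval of 52.3 to 771. For the inputs Foxn4 was at least 116-fold and Ptf1a at least 15.5-fold higher in retina, and Prdm13 had a log2 change of 5.2 (SE 0.69, adjusted p = 0.00338). Without cortex input replicate 1, whose floor is the higher one, the bounds in the inputs were at least 682-fold for Foxn4 and at least 90.8-fold for Ptf1a, and Prdm13 had a log2 change of 4.82 (adjusted p = 6.22e-05).

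Over the Ythdf1 IPs, 6 of the 9 genes were called higher in retina and 1 lower, beside 19.1% and 23.5% of the 17055 genes tested. Over the Ythdf2 IPs, 7 were called higher and 1 lower, beside 15.8% and 18% of all genes. Over the inputs, 6 were called higher and none lower, beside 3.51% and 4.01% of 18458 genes. Without cortex input replicate 1, 7 were called higher and 1 lower in the inputs, beside 10% and 12% of all genes. The medians of the 9 genes were 2.64 in the Ythdf1 IPs, 3.64 in the Ythdf2 IPs and 4.78 in the inputs on the log2 scale, where those of all genes were -0.24, -0.18 and -0.15. With genes at 0 in cortex set at their bound, the median in the inputs was 4.32 and the other 2 medians were the same. These genes were chosen as retinal cell type factors. Foxn4 and Ptf1a, with no counts in the cortex inputs and cortex Ythdf1 IPs, passed the filter on low counts through the retina libraries alone. So did Prdm13 in the fit to the IP libraries. The calls higher in retina are therefore no independent result about the 9 genes. In the fit to all 12 libraries, 4 were called higher and none lower in each of the 2 IP comparisons, beside 4.4% and 4.39% of all genes for Ythdf1 and 3.14% and 2.43% for Ythdf2.

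Tfap2a and Tfap2b were low in cortex. Tfap2a averaged 32.4 ± 0.778 normalised CPM (scaled over 12 libraries, as below) in retina Ythdf1 IPs and 1.02 ± 0.168 in cortex Ythdf1 IPs, a log2 change of 5.01 (SE 0.33, adjusted p = 4.7e-07, edgeR). In Ythdf2 IPs the change of Tfap2a was 3.64 (SE 0.3, adjusted p = 2.58e-06) and in inputs 6 (SE 0.78, adjusted p = 0.00287), or 5.46 (adjusted p = 1.99e-05) without cortex input replicate 1. Tfap2b had 16.5 and 18.4 normalised CPM in retina Ythdf1 IPs, against 2.88 and 2.66 in cortex Ythdf1 IPs (log2 fold change 2.64, SE 0.73, adjusted p = 0.0222). That call was lost without any 1 of these 4 libraries (adjusted p 0.0585 to 0.137). In Ythdf2 IPs Tfap2b had 26.8 and 22.5 normalised CPM in retina, against 0.36 and 3.02 in cortex (log2 fold change 3.83, SE 0.75, adjusted p = 0.00584). In inputs it had 1035 and 1862 counts in retina, against 0 and 419 in cortex, where the 0 came from the library that stood apart. The log2 fold change of 4.32 (SE 1.23, adjusted p = 0.0546) became 3.45 (adjusted p = 0.0115) without that library.

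Onecut1 had 36 and 60 counts in retina Ythdf1 IPs, against 11 and 23 in cortex Ythdf1 IPs, and its log2 fold change of 1.27 (SE 0.69, adjusted p = 0.154, edgeR) was 2.66 (adjusted p = 0.0232) without cortex Ythdf1 IP replicate 2. In Ythdf2 IPs it had 32 and 42 counts in retina and 16 and 54 in cortex. On the normalised scale these were 1.62 and 2.21 CPM in retina, against 0.303 and 0.51 in cortex, which did not overlap. The change of 2.22 (SE 0.68, adjusted p = 0.023) was lost without any 1 of these 4 libraries (adjusted p 0.0551 to 0.119). In inputs Onecut1 had 117 and 346 counts in retina, against 0 and 38 in cortex (log2 fold change 4.78, SE 1.03, adjusted p = 0.0214). Without the cortex library that stood apart it was 4.26 (adjusted p = 0.00568), and without retina input replicate 1 or 2 the adjusted p was 0.0688 or 0.0884.

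Onecut2 was not called between the tissues in the IPs by the main fit, although its values in the Ythdf2 IPs did not overlap. It had 4.08 and 3.63 normalised CPM in retina Ythdf1 IPs, against 4.68 and 4.02 in cortex (log2 fold change -0.18, SE 0.29, adjusted p = 0.64, edgeR), and 5.15 and 5.2 in retina Ythdf2 IPs, against 2.69 and 3.5 in cortex (0.75, SE 0.29, adjusted p = 0.0611). In inputs Onecut2 had 3.23 and 16.1 normalised CPM in retina, against 1.19 and 1.77 in cortex. The log2 fold change of 2.67 (SE 0.66, adjusted p = 0.0345) was 1.09 (adjusted p = 0.216) without retina input replicate 2. It was 2.45 (adjusted p = 0.0248) without cortex input replicate 1. Leaving out an IP library, which enters through the shared spread alone, also ended the call for 7 of the 8 IP libraries (adjusted p 0.0519 to 0.063).

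Prox1, a homeodomain factor also known in the developing brain, was well detected in both tissues. It had 22.3 and 24.9 normalised CPM in retina Ythdf1 IPs, against 10.4 and 7 in cortex (log2 fold change 1.43, SE 0.28, adjusted p = 0.00159, edgeR), and 20.1 and 16.1 in retina Ythdf2 IPs, against 6.44 and 9.96 in cortex (1.16, SE 0.28, adjusted p = 0.0068). Without retina Ythdf2 IP replicate 1 the second change was 0.99 (adjusted p = 0.073). On the authors' FPKM, limma gave 0.61 (adjusted p = 0.292) in the Ythdf1 IPs and -0.23 (adjusted p = 0.58) in the Ythdf2 IPs, with a pseudocount of 1. The sign for Prox1 in the Ythdf2 IPs thus depended on the scale. In that FPKM setting the median log2 fold change of all genes in the Ythdf2 IPs was itself -0.57. There 583 genes were called higher and 9998 lower, and the value of Prox1 was above the median. In inputs Prox1 had 12.6 and 27.4 normalised CPM in retina, against 14.8 and 7.9 in cortex, which overlapped (log2 fold change 0.83, SE 0.51, adjusted p = 0.317).

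Lhx1 was the one gene called lower in retina. It had 0.386 and 0.491 normalised CPM in retina Ythdf1 IPs, against 1.56 and 1.85 in cortex (log2 fold change -1.95, SE 0.54, adjusted p = 0.0116, edgeR), and 0.455 and 0.368 in retina Ythdf2 IPs, against 1.4 and 2.62 in cortex (-2.27, SE 0.55, adjusted p = 0.00697). The retina libraries held 7 to 13 counts of Lhx1 in the IPs. The first call was lost without retina Ythdf1 IP replicate 1 (adjusted p = 0.0802). The second was lost without retina Ythdf2 IP replicate 2 (adjusted p = 0.0561) and without cortex Ythdf2 IP replicate 2 (-1.76, adjusted p = 0.079). In inputs Lhx1 had 0.521 and 0.669 normalised CPM in retina, against 0.356 and 3.13 in cortex. The log2 fold change was -1.64 (SE 0.84, adjusted p = 0.234), -2.39 (adjusted p = 0.0109) without cortex input replicate 1, and 0.8 (adjusted p = 0.565) without cortex input replicate 2.

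**Figure D4:**
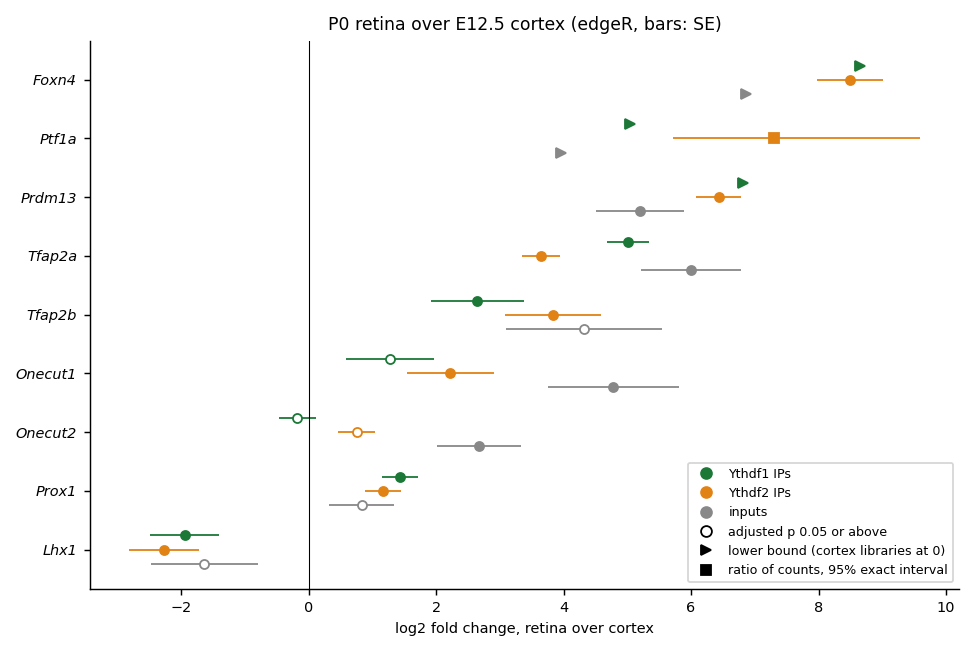
Log2 fold change of P0 retina over E12.5 cortex for each of the 9 genes in Ythdf1 IPs, Ythdf2 IPs and inputs (x axis; points are edgeR estimates with bars of 1 SE, open where the adjusted p is 0.05 or above; triangles are lower bounds where both cortex libraries are at 0; the square is a ratio of counts with its 95% interval). The values fall from Foxn4, at least 400-fold in the Ythdf1 IPs, to Lhx1, at -1.95 and -2.27 in the IPs.

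Whether enrichment over input differed between the tissues was tested as retina enrichment minus cortex enrichment in a fit to all 12 libraries. For Ythdf1, 0 of the 9 genes were called by edgeR, beside 0% of all genes called higher and 0.00542% called lower (3064 genes had an unadjusted p under 0.05, and DESeq2 called 1149 genes). For Ythdf2, 0 were called as well, beside 0% and 0.0325% (2080 genes under 0.05 before adjustment, and 451 called by DESeq2). Foxn4 and Ptf1a had 0 counts in the cortex inputs and in the cortex Ythdf1 IPs. The Ythdf1 contrast thus had no basis to call them, and their lack of a call there says nothing. Before adjustment, Prdm13, Onecut1 and Onecut2 had p under 0.05 for Ythdf1, and Foxn4 and Tfap2a for Ythdf2 (edgeR). The Foxn4 value for Ythdf2 rested on 0 and 11 counts in cortex Ythdf2 IPs and 0 and 0 in cortex inputs, so no size is given for it. Onecut2 differed by -2.84 (SE 0.9, adjusted p = 0.184) and Onecut1 by -3.55 (SE 1.32, adjusted p = 0.231) for Ythdf1. Without cortex input replicate 1 they differed by -2.62 (adjusted p = 0.106) and -2.96 (adjusted p = 0.144). Tfap2a differed by -2.36 (SE 0.92, adjusted p = 0.385) for Ythdf2, and by -1.83 (adjusted p = 0.121) without cortex input replicate 1. DESeq2 called Prdm13 (adjusted p = 0.0209) and Onecut2 (adjusted p = 0.044) for Ythdf1. Prdm13 was also called without cortex input replicate 1 (adjusted p = 0.0081), where 3.75% of all genes were. Without cortex input replicate 2, which leaves the library that stood apart as the sole cortex input, 4 of the 9 were called for Ythdf1 and 3 for Ythdf2, beside 27.9% and 23.4% of all genes. With 0 counts of Prdm13 in both cortex Ythdf1 IPs and 0 and 21 in cortex inputs, no size is given for its difference.

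Beyond the 9 genes, 50 other genes of amacrine and horizontal cell development were followed, of which 42 were tested in the retina. Their values come from the main fits alone. Whether their calls hold under the alternatives used for the 9 genes, such as leaving out a library, was not tested. In the Ythdf1 IP, 5 were called higher and 7 lower, with a median log2 fold change of -0.27. In the Ythdf2 IP, 3 were called higher and 5 lower, with a median of 0.03. By share, the calls stood beside the same 17.3% and 20.3%, and 9.55% and 10.7%, of all genes. The counts within the smaller groups below stand beside the same shares.

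Of 10 factors upstream of these cell types, 1 was called higher and 3 lower in the Ythdf1 IP. Neurog2, a proneural factor, had 22 and 22 normalised CPM in Ythdf1 IPs, against 10.9 and 8.41 in inputs (log2 fold change 1.19, SE 0.27, adjusted p = 0.00809, edgeR). Hes1, a Notch effector, had 7.91 and 10.1 in Ythdf1 IPs, against 25.1 and 15.3 in inputs (-1.16, SE 0.32, adjusted p = 0.0195). Rorb, a nuclear receptor needed for horizontal and amacrine cells, had 57.7 and 63.5 in Ythdf1 IPs, against 89.1 and 225 in inputs (-1.37, SE 0.4, adjusted p = 0.0236). In the Ythdf2 IP, 1 was called higher and 2 lower. Rbpj, the DNA-binding partner of Notch, had 26.6 and 26.9 in Ythdf2 IPs, against 10 and 15.5 in inputs (1.07, SE 0.29, adjusted p = 0.0296). Sox2, a progenitor factor, had 5.32 and 5.6 in Ythdf2 IPs, against 13.5 and 13.3 in inputs (-1.3, SE 0.27, adjusted p = 0.0095). Hes1 was lower there too, at 8.36 and 6.65 in Ythdf2 IPs (-1.43, SE 0.33, adjusted p = 0.0153), against the same inputs.

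Of 17 amacrine transcription factor genes, 16 were tested, and 0 were called higher and 2 lower in each IP by edgeR. Lhx9, a LIM-homeodomain factor, had 2.38 and 2.61 normalised CPM in Ythdf1 IPs, against 7.55 and 9.33 in inputs (log2 fold change -1.76, SE 0.31, adjusted p = 0.00261). Of 15 genes of amacrine transmission and cell spacing, 11 were tested, with 3 called higher and 1 lower in the Ythdf1 IP and 1 higher in the Ythdf2 IP. Slc32a1, the vesicular transporter for GABA and glycine, had 6.82 and 7.35 normalised CPM in Ythdf1 IPs, against 3.1 and 1.64 in inputs (1.58, SE 0.39, adjusted p = 0.0116). Megf10, a receptor that spaces amacrine and horizontal cells, had 8.36 and 9.93 normalised CPM in Ythdf2 IPs, against 1.74 and 4.93 in inputs (1.45, SE 0.44, adjusted p = 0.0447).

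Of 8 further horizontal cell genes, 5 were tested, with 1 called higher and 1 lower in each IP. Sall3, a zinc finger protein, had 6.34 and 7.01 normalised CPM in Ythdf1 IPs and 3.83 and 2.27 in Ythdf2 IPs, against 1.3 and 1.34 in inputs. It rose by a log2 change of 2.34 (SE 0.37, adjusted p = 0.00156, edgeR) in the Ythdf1 IP and of 1.21 (SE 0.37, adjusted p = 0.0462) in the Ythdf2 IP. Nefm, a neurofilament gene, had 3.24 and 3.5 in Ythdf2 IPs, against 7.08 and 23.3 in inputs (-2.17, SE 0.5, adjusted p = 0.0154). Among horizontal cell genes, Sall3 was thus called above the input, and Onecut1 and Nefm below it, in both IPs. The others tested, Onecut2, Onecut3, Prox1, Lhx1, Sept4 and Nefl, were not called in either IP. Onecut3 was at -1.83 (SE 0.59, adjusted p = 0.0546, edgeR) in the Ythdf2 IP.

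Between the antibodies, 1 of the 42 genes was called higher and 3 lower in Ythdf1 than in Ythdf2 IPs, beside 2.57% and 6.56% of all genes. Neurog2 had 22 and 22 normalised CPM in Ythdf1 IPs, against 9.15 and 8.22 in Ythdf2 IPs (log2 fold change 1.34, SE 0.27, adjusted p = 0.0181, edgeR). Gad2, a GABA-synthesising enzyme, had 3.23 and 3.9 in Ythdf1 IPs, against 11.6 and 13.6 in Ythdf2 IPs (-1.82, SE 0.38, adjusted p = 0.0216). Rbpj (-1.38, SE 0.29, adjusted p = 0.0209) and Tcf4, a bHLH factor (-1.72, SE 0.43, adjusted p = 0.0377), were the others called lower.

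**Figure D5:**
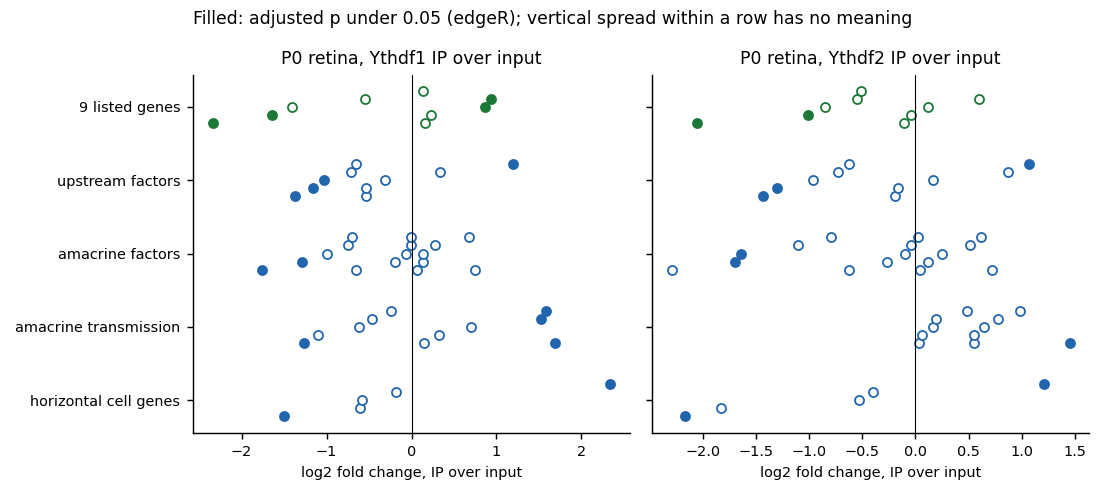
Log2 fold change of IP over input in the P0 retina (x axis) for the 9 genes and, below them, the tested members of 4 groups of related genes, with Ythdf1 IPs in the left panel and Ythdf2 IPs in the right (filled points have an adjusted p under 0.05). In each panel the 9 genes and the related genes spread to both sides of 0, with medians of the 42 related genes of -0.27 and 0.03.

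Across the 12 libraries, likeness was measured as Pearson's r of log2 normalised CPM (prior count 2), as a description, since the points share library depth and mostly reflect the difference between tissues. The profiles of Foxn4 and Ptf1a were the closest pair, with r = 0.996, and Prdm13 was closest to Foxn4, with r = 0.977. Tfap2a and Tfap2b were closest to each other, with r = 0.923. Onecut1 was closest to Tfap2b (r = 0.922), Onecut2 to Onecut1 (r = 0.807) and Prox1 to Foxn4 (r = 0.825). Lhx1 had no like partner. Its highest r with any of the others was -0.155, with Onecut2. The 5 protein-coding genes outside the lists with the profile most like the mean of the 9 were Gli1 (r = 0.974), Mak (0.973), Pax2 (0.97), Mab21l2 (0.969) and Rrh (0.968).

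On GRCm38 the genes lie at chr5:114254164-114273807 (Foxn4), chr2:19445663-19447501 (Ptf1a), chr4:21677480-21685963 (Prdm13), chr13:40715302-40738376 (Tfap2a), chr1:19208914-19238576 (Tfap2b), chr9:74861921-74891781 (Onecut1), chr18:64340020-64400987 (Onecut2), chr1:190118035-190170714 (Prox1) and chr11:84518284-84525535 (Lhx1). Genes annotated on the opposite strand overlap exons of Ptf1a, Tfap2a and Prox1. Summed over the 12 libraries they held few counts, with 3 for Ptf1aos, 8 to 120 for each of 3 genes over Tfap2a and 182 for Prox1os. The library kit keeps strand, but the strand setting of the counting is not given in the sources used here, so antisense reads within the counts of these 3 genes cannot be told apart from sense reads.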

How the data were processed

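RIP-seq was measured in 12 libraries in 6 groups of 2. The authors deposited raw read counts per gene and FPKM per gene. Mapping with STAR 2.5, counting with HTSeq and the build GRCm38 are named, per the submitters' processing notes. Not given in the sources used here are the annotation release, filters, strand setting and the gene length behind the deposited FPKM. Of 52550 Ensembl identifiers, 52403 were matched to GENCODE M21 and 147 were not.

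Counts were filtered with filterByExpr (minimum count 10, minimum total 15), scaled by TMM and tested with edgeR 4.0.16 (quasi-likelihood, robust, R 4.3.3), in fits to the 6 retina libraries (3 residual degrees of freedom), the 8 IP libraries (4) or all 12 (6). Tests were two-sided, with Benjamini-Hochberg adjustment over all genes tested and calls under 0.05. The SE was derived from the log2 fold change and the F statistic (size of the change over the root of F). A group at 0 is set at 3 counts per library. The script was tested on simulated data. Alternatives used DESeq2 1.42.0, other scalings, no filter, limma 3.58.1 on log2(FPKM + 1) or log2(FPKM + 0.1), other sets of libraries, a replicate block and leaving out each library.

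The 9 genes, the related lists, the markers and the tests were chosen with earlier results of these data known. Named genes were the 9, up to 3 called higher and 3 called lower related genes with the smallest p in each retina IP against input, the 5 genes most alike in profile, and the antibody targets; the related genes called between the antibodies were named after their values were seen.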

Additional observations from a re-analysis of the deposited data

How the results depend on the processing

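Of 802 recomputed values of single genes, 665 kept their direction and side of the threshold, 81 lost a call, 34 gained one and 22 changed sign. Numbers below are genes called, over all genes and then among the 9 where these moved. For the retina Ythdf1 IP over input, a fit to all 12 libraries called 1625 and 0, DESeq2 size factors 2 of the 9, and a fit to 11 libraries without cortex input replicate 1, chosen after seeing the data, 2 of the 9; leaving out a library gave 2361 to 7244 and 0 to 6. For the Ythdf2 IP, all 12 libraries gave 377 and 0, protein-coding totals, the replicate block and 11 libraries 1 of the 9 each, FPKM with either pseudocount 0, and leaving out a library 660 to 5421 and 0 to 7. Protein-coding totals changed the share of higher calls: 3636 higher and 2251 lower for Ythdf1, against 2490 and 2920 with TMM, and 2976 and 1177 for Ythdf2, against 1374 and 1535. Between antibodies, DESeq2 called 1978 and 1, all 12 libraries 0 (2211 at an unadjusted p under 0.05), no filter 2 of the 9, and leaving out a library 23 to 4735 and 0 to 3. For retina over cortex, all 12 libraries gave 1624 and 4 in Ythdf1 IPs and 1029 and 4 in Ythdf2 IPs. FPKM with pseudocount 1 and 0.1 gave 1772 and 4091 (4 of the 9 each) in Ythdf1 IPs. In Ythdf2 IPs it gave 10581 and 10560, of which 9998 and 9976 were lower in retina. In inputs it gave 116 (1 of the 9) and 196 (3 of the 9). For inputs no filter gave 2622 and DESeq2 3415. Leaving out a library gave 4474 to 7025 and 5 to 7 in Ythdf1 IPs, 3563 to 6146 and 6 to 9 in Ythdf2 IPs, and 137 to 5711 and 4 to 8 in inputs. For the tissue difference in Ythdf1 enrichment, DESeq2 size factors gave 5, protein-coding totals 2, the replicate block 2, no filter 1008 (1 of the 9), DESeq2 1149 (2 of the 9) and leaving out a library 0 to 5144 (0 to 4). For Ythdf2 these were 3 with protein-coding totals, 637 without a filter, 451 with DESeq2 and 0 to 4315 (0 to 3) without a library. The causes were not tested.

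Signs that changed were all of uncalled values but that of Prox1 between tissues. In Ythdf2 IP over input, Ptf1a was 0.34 with protein-coding totals, 0.07 with the replicate block, and 0.16 and 0.30 on FPKM, and Prox1 was 0.25 with protein-coding totals, and 0.05 and 0.11 on FPKM. In Ythdf2 IPs of retina over cortex, FPKM gave -0.23 and -0.60 for Onecut2 and -0.23 and -0.30 for Prox1. The medians of all genes there were -0.57 and -1.35. Leaving out 1 library also turned the sign of 8 values, whose log2 fold changes then ranged as follows. In Ythdf1 IP over input these were Ptf1a -0.42 to 1.29, Onecut2 -2.16 to 0.07 and Prox1 -0.31 to 0.71. In Ythdf2 IP over input they were Foxn4 -0.29 to 0.6, Ptf1a -0.69 to 1.02, Onecut2 -1.61 to 0.61 and Prox1 -0.57 to 0.45. For Lhx1 in inputs of retina over cortex the range was -2.39 to 0.8. The text gives no fitted fold against a group left with 0 counts, since it depends on the prior count.

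The series design states that each replicate holds input and IP samples. Same-numbered libraries did not deviate together (correlations of deviations from -0.051 to 0.077 over 6 pairs within tissues), so the main fits did not pair them. With 2 replicates this cannot show that the libraries were unpaired. With the replicate block the retina Ythdf1 IP over input gave 5381 calls and the Ythdf2 IP 2972. FPKM alternatives were not made for the antibody or enrichment differences. With 2 libraries a group, values near the threshold depend on single libraries, and Lhx1 and Onecut1 rest on few counts.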
